A study of Sus scrofa with 59 samples.

Results

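The genes described here encode the catalytic subunits of the pyruvate dehydrogenase complex and the kinase that switches it off. They are PDHA1, PDHB, DLAT, DLD and PDK4, found by gene symbol in the platform annotation, and they are 5 of the 6765 genes named on the array. All 5 had a probe set that passed the filter on dim signals. Each of the 4 subunit genes has 1 probe set and PDK4 has 2, of which the brighter stands for the gene unless the other is named. Expression was measured in longissimus dorsi, the large back muscle, of 59 pigs with 1 Affymetrix array per pig. The animals, 170 days old and of the cross labelled LD/LW x Duroc, were raised together with free access to feed, and muscle was taken at slaughter, so RNA reflects tissue early after death. The labels give no treatment and no genotype beyond the cross, so all arrays form 1 group and the comparisons run across pigs. The 33 body and meat traits named in the series design were not analysed here per pig, nor was sex.

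The pyruvate dehydrogenase complex sits in the mitochondrial matrix and turns pyruvate, the end product of glycolysis, into acetyl-CoA for the tricarboxylic acid (TCA) cycle. PDHA1 and PDHB encode the alpha and beta subunits of the decarboxylase E1, DLAT encodes the acetyltransferase core E2, and DLD encodes the lipoamide dehydrogenase E3, which also serves the 2-oxoglutarate and branched-chain keto acid dehydrogenases and the glycine cleavage system. PDK4 encodes a kinase that phosphorylates the E1 alpha subunit and so inactivates the complex, and in skeletal muscle its transcript is known to rise on fasting, with fatty acids and with glucocorticoids, through PPAR and FOXO factors.

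The muscle label was checked on the 8 muscle genes found on the array, whose mean log2 values lay between 12.65 for MYBPC1 and 14.62 for CKM, the muscle creatine kinase. Array medians lay between 6.23 and 6.30 and pairs of arrays correlated at 0.969 to 0.995. The array of pig 36 was least like the others, with a median correlation of 0.977 against 0.989 for the typical array, followed by pig 52 at 0.984. Pig 36 also had the lowest PDHB, DLAT and DLD of all pigs, so counts of genes called with PDHB that fall by over 1.5 times without it are given with and without. Values are the authors' GCRMA values, read as log2, and the precision of a slope follows from the number of arrays and the scatter of the values over them. In whole muscle, fewer cells of a type and less RNA per cell cannot be told apart.

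PDHA1 varied most among the subunit genes. Its log2 value ran from 9.45 in pig 57 through a median of 10.02 to 10.96 in pig 72, a 2.85-fold range, with a mean of 10.03 ± 0.33 (SD, n = 59). Pig 72 stood apart at the top, the next being pig 52 at 10.70. PDHB, the partner of PDHA1 in E1, kept to a much narrower band. It ran from 11.50 in pig 36 through a median of 11.97 to 12.22 in pig 67, a 1.65-fold range, with a mean of 11.94 ± 0.13. Only 8.63% of the 12000 probe sets tested had a smaller SD than PDHB, whereas 82.2% had a smaller one than PDHA1.

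DLAT and DLD lay between these. DLAT ran from 8.77 through a median of 9.20 to 9.58, a 1.75-fold range, with a mean of 9.19 ± 0.19. DLD ran from 11.73 through a median of 12.07 to 12.51, a 1.71-fold range, with a mean of 12.10 ± 0.17. The same pigs marked the ends of both genes, pig 36 at the bottom and pig 72 at the top. Pig 46 was low throughout, at rank 58, 57, 58 and 57 of 59 for PDHA1, PDHB, DLAT and DLD and 55 for PDK4.

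The brighter PDK4 probe set ran from 12.84 in pig 30 through a median of 13.71 to 14.14 in pig 5, a 2.47-fold range, with a mean of 13.64 ± 0.27. The dimmer one ran from 11.01 in pig 30 through 12.51 to 13.16 in pig 37, a 4.44-fold range, with a mean of 12.34 ± 0.51. Both probe sets put pig 30 last and ordered the pigs alike, with r = 0.955 and rho = 0.918, but the dimmer one covered 2.15 log2 units against 1.30. The fold range of the PDK4 transcript is therefore given for each probe set. The brighter probe set lies near the top of the array's scale, which ends at 15.04.

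**Figure D1:**
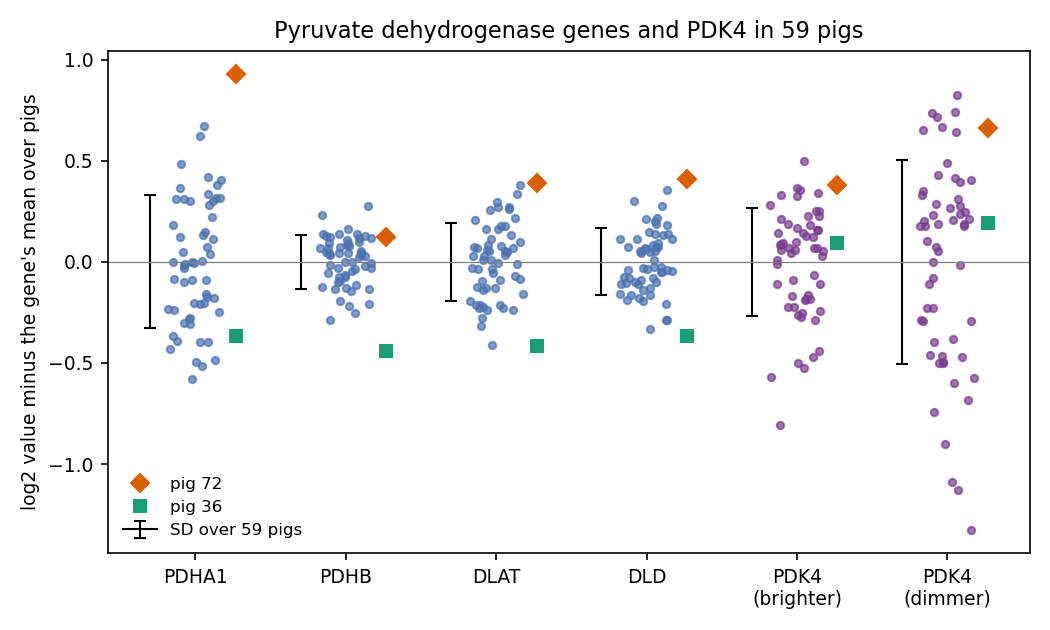
Log2 value of each gene in each of 59 pigs, as the difference from the gene's mean over pigs. Points are pigs, bars are the SD over pigs, and the diamond and square mark pigs 72 and 36. PDHB is the narrowest column, PDHA1 the widest of the subunits, and the dimmer PDK4 probe set spreads wider than the brighter one.

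The SD of PDHA1 was 2.49 times that of PDHB (95% interval over resampled arrays 1.89 to 3.36), 1.70 times that of DLAT (1.42 to 2.03) and 1.98 times that of DLD (1.62 to 2.35). The brighter PDK4 probe set had 2.04 times the SD of PDHB (1.51 to 2.75), and its SD relative to PDHA1 was 0.817 (0.652 to 1.01), an interval that includes equal spread. With the dimmer probe set the ratio to PDHA1 was 1.54. Whether the kinase gene or PDHA1 varied more between pigs thus depended on the probe set, and that either varied more than PDHB did not.

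The 4 subunit genes rose and fell together across pigs. All 6 pairs had a positive Pearson correlation, and all 6 passed limma's test adjusted over every probe set tested, beside 17.2% of all genes that were higher with PDHA1, 11.4% with PDHB and 7.65% with DLAT, the genes the pairs were fitted on. The tightest pair was DLAT with DLD, the genes of E2 and E3, at r = 0.789 (95% interval 0.668 to 0.870; rho = 0.765, permutation p = 1e-05 for each, the smallest that 100000 permutations can give). PDHA1 with DLAT followed at r = 0.711 (rho = 0.681, permutation p = 1e-05 for each). The 3 pairs PDHB with DLAT (r = 0.527, rho = 0.476), PDHB with DLD (r = 0.519, rho = 0.457) and PDHA1 with DLD (r = 0.519, rho = 0.450) came next, with permutation p = 4e-05, 3e-05 and 2e-05 for r and 0.00015, 0.00038 and 0.00039 for rho. With the 2 most extreme pigs of the gene named first left out, these 5 pairs had r = 0.753, 0.659, 0.431, 0.407 and 0.406 in the order given. These pairs are among 10 correlations computed between the 5 genes.

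The loosest subunit pair was PDHA1 with PDHB, the 2 chains of the same enzyme. Their r was 0.346 (0.0985 to 0.553; permutation p = 0.00736) and rho was 0.354 (permutation p = 0.00638), and r was 0.364 once the 2 most extreme PDHA1 pigs were left out. PDHB was higher by 0.046 ± 0.017 (SE, adjusted p = 0.0366) log2 units per SD of PDHA1. That call was lost when any 1 of 6 pigs was left out and when all probe sets were tested without the filter (adjusted p = 0.0576). DLAT in turn was higher by 0.14 ± 0.018 (SE, adjusted p = 6.86e-08) and DLD by 0.086 ± 0.019 (SE, adjusted p = 0.000537) per SD of PDHA1, and DLD was higher by 0.13 ± 0.014 (SE, adjusted p = 7.11e-10) per SD of DLAT. These 3 calls held whichever single pig was left out.

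PDK4 followed PDHA1, the subunit its protein phosphorylates, and not PDHB. PDHA1 was higher by 0.19 ± 0.035 (SE, adjusted p = 8e-05) log2 units per SD of PDK4, with r = 0.582 (0.384 to 0.730; permutation p = 1e-05), rho = 0.591 (permutation p = 1e-05) and r = 0.566 without the 2 pigs farthest from the PDK4 median. The dimmer PDK4 probe set gave r = 0.543. Pigs 72, 52 and 5 hold the 3 highest values of PDHA1 and rank 2, 3 and 1 for PDK4, while pig 57, lowest in PDHA1, ranks 58 for PDK4. The pig lowest in PDK4, pig 30, has an unremarkable PDHA1 at rank 43.

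No relation of PDHB to PDK4 was detected, with r = -0.0330 (-0.287 to 0.225; permutation p = 0.804), rho = -0.0613 (permutation p = 0.642) and an adjusted p of 0.886. DLD had r = 0.182 (-0.0779 to 0.418; permutation p = 0.168), rho = 0.196 (permutation p = 0.138) and an adjusted p of 0.319. Neither interval excludes a weak positive relation. DLAT lay between, at r = 0.321 (0.0712 to 0.534; permutation p = 0.0125) and rho = 0.337 (permutation p = 0.00962), and was higher by 0.062 ± 0.024 (SE, adjusted p = 0.0492) per SD of PDK4. The DLAT call was marginal: it was lost when any 1 of 36 of the 59 pigs was left out, and with the dimmer PDK4 probe set (adjusted p = 0.177).

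**Figure D2:**
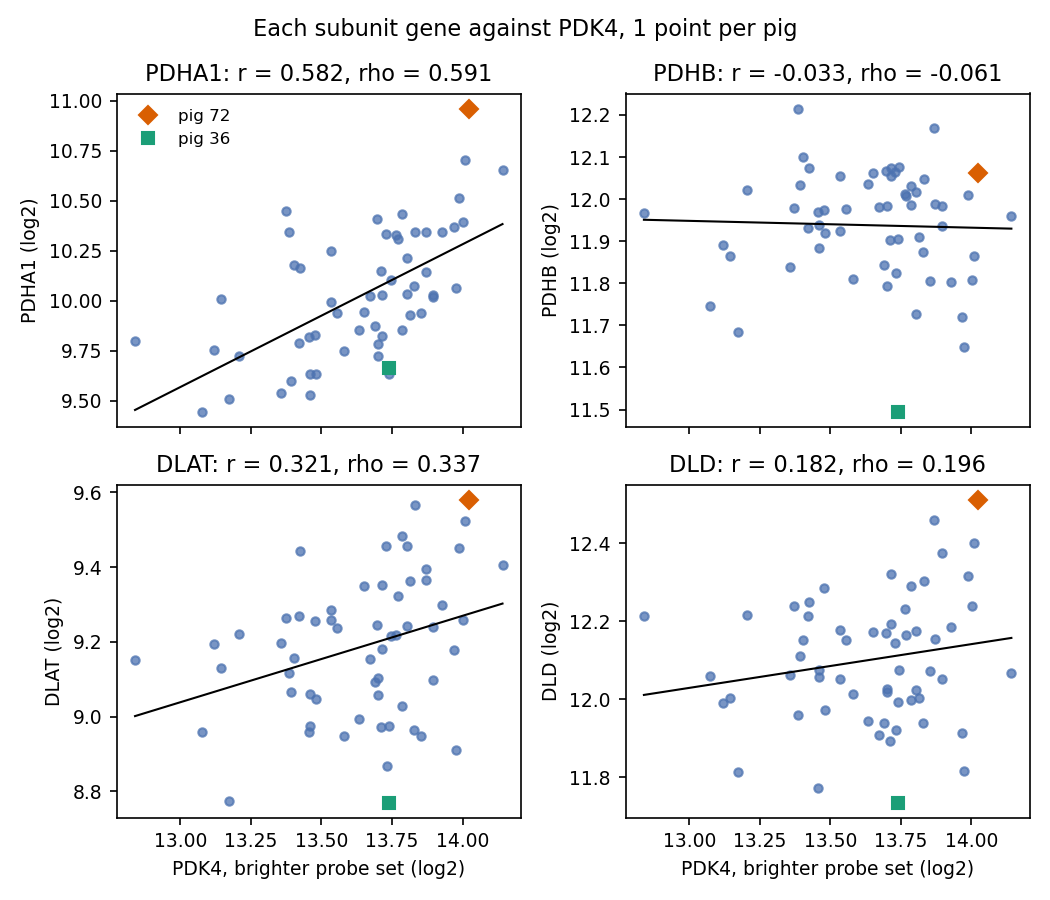
Log2 value of each subunit gene against the brighter PDK4 probe set, 1 point per pig, with the least-squares line. PDHA1 rises with PDK4 (r = 0.582), PDHB is flat (r = -0.0330), and DLAT and DLD lie between; the diamond and square mark pigs 72 and 36.

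That the subunits stood differently to PDK4 was tested on the difference between pairs of standardised subunit values, 6 tests chosen after the values were seen. PDHA1 minus PDHB rose with PDK4 (r = 0.538, rho = 0.550, permutation p = 4e-05 and 1e-05). So did PDHA1 minus DLD (r = 0.408, rho = 0.348, permutation p = 0.00143 and 0.00721) and PDHA1 minus DLAT (r = 0.343, rho = 0.336, permutation p = 0.00781 and 0.00949). PDHB minus DLAT fell with PDK4 (r = -0.364, rho = -0.417, permutation p = 0.00448 and 0.00096). PDHB minus DLD (r = -0.219, rho = -0.264, permutation p = 0.0945 and 0.0435) and DLAT minus DLD (r = 0.215, rho = 0.160, permutation p = 0.101 and 0.224) did not pass 0.05 by r. Without the 2 pigs farthest from the PDK4 median, the 4 that passed had r = 0.560, 0.329, 0.322 and -0.406. These p-values are not adjusted, and the dimmer probe set put the same 4 differences under 0.05 by r.

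The reverse question, whether a subunit followed its fellow subunits more than PDK4, was tested by entering PDK4 and a subunit together. Per SD, DLD followed DLAT more than PDK4, with slopes of 0.14 and -0.013 and a difference, PDK4 minus DLAT, of -0.15 ± 0.025 (SE, adjusted p = 9.02e-05). DLAT likewise followed DLD more than PDK4 (-0.11 ± 0.025 SE, adjusted p = 0.000875) and PDHA1 more than PDK4 (-0.18 ± 0.040 SE, adjusted p = 0.00775). PDHB followed DLAT more than PDK4 (-0.11 ± 0.026 SE, adjusted p = 0.00429) and DLD more than PDK4 (-0.089 ± 0.024 SE, adjusted p = 0.00553). These 5 of 12 comparisons were called different. For PDHA1 none of the 3 was. Its slopes on PDK4 and on a fellow subunit, 0.13 and 0.19 beside DLAT, 0.17 and 0.14 beside DLD and 0.20 and 0.12 beside PDHB, were not called different (adjusted p = 0.383, 0.748 and 0.179). The other 4 were DLAT and DLD beside PDHB (adjusted p = 0.301 and 0.0984) and PDHB and DLD beside PDHA1 (adjusted p = 0.0663 and 0.0829).

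The pairs moved with 2 broad measures of the arrays. The first principal component of the probe sets in no gene list carried 19.9% of their variance and correlated with PDK4 at 0.609, with PDHA1 at 0.518, with PDHB at -0.469, with DLAT at 0.171 and with DLD at -0.0375. It also correlated with the mean of the heat shock genes at 0.850. Given this component, PDHA1 and PDHB correlated at 0.779 in place of 0.346, and the 6 subunit pairs lay between 0.568 and 0.808. Given it, PDK4 correlated with PDHA1 at 0.393, with PDHB at 0.360, with DLAT at 0.278 and with DLD at 0.258, and no subunit passed the adjusted test on PDK4 (adjusted p = 0.101 for PDHA1).

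The second measure was the mean of 27 respiratory chain and ATP synthase genes, which correlated with DLAT at 0.797, DLD at 0.796, PDHA1 at 0.707, PDHB at 0.519 and PDK4 at 0.281. Given this score, the subunit pairs fell to between -0.102 and 0.423, and PDHA1 with PDHB to -0.0348. PDHA1 with PDK4 stood at 0.566 given the score, close to its 0.582 without it. The difference between the 3' and 5' probes of 3 control genes, a sign of RNA quality, correlated with the 5 genes at -0.227 to 0.139. What part the component, the score or RNA quality had in these relations was not tested beyond these values.

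**Figure D3:**
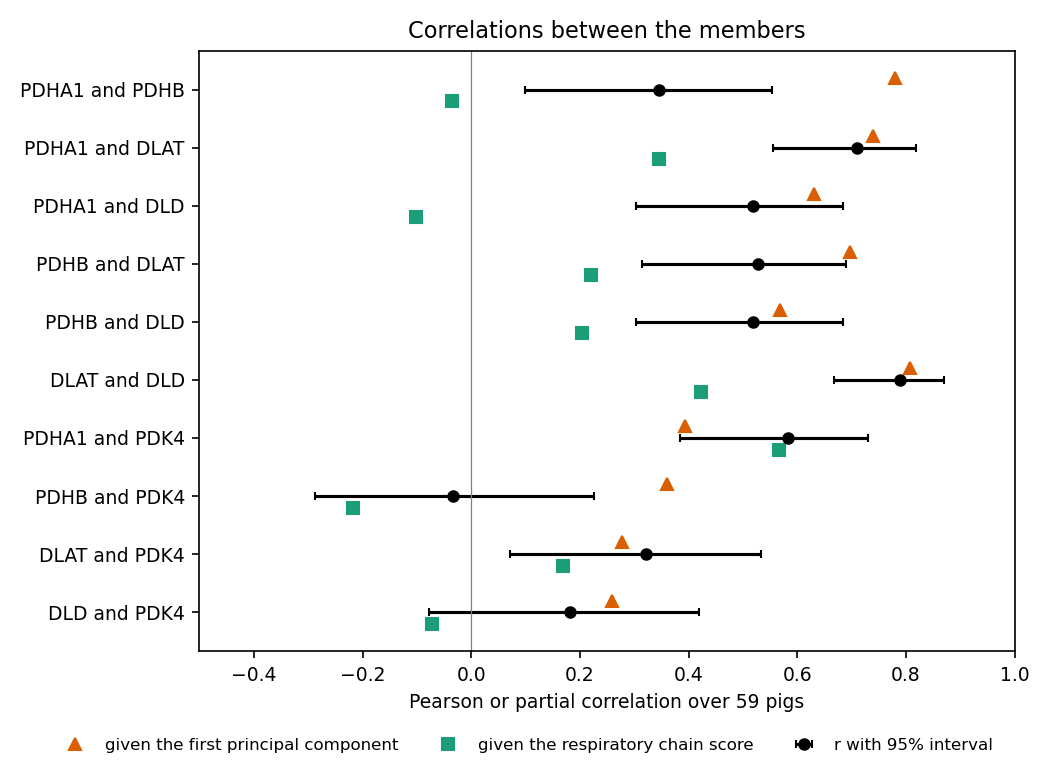
Pearson correlation of each pair of the 5 genes over 59 pigs with its 95% interval (circles), and the same correlation with either the first principal component (triangles) or the respiratory chain score (squares) held fixed. Given the score, the subunit pairs move lower while PDHA1 with PDK4 stays near 0.57; given the component, PDHB with PDK4 moves from -0.0330 to 0.360.

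Across the array, 640 of 4927 genes tested were higher with PDK4 (13.0%) and 760 lower (15.4%). The figures were 846 (17.2%) and 631 (12.8%) for PDHA1, 564 (11.4%) and 588 (11.9%) for PDHB, 377 (7.65%) and 128 (2.60%) for DLAT, and 325 (6.60%) and 172 (3.49%) for DLD, each by limma at an adjusted p under 0.05. Without pig 36, the PDHB figures were 249 (5.05%) and 233 (4.73%). Counts of genes in a list below are read against these shares, and PDHB counts without pig 36 against the shares without it. A slope is the change in log2 value per SD of the gene on the x axis over pigs. The 5 fits use the same arrays, so their counts are set side by side and not tested against each other except where a difference of slopes is given.

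Of the other kinases and phosphatases of the complex, PDK3 and PDP2 were measured above the filter. Neither followed PDK4, with slopes of -0.039 ± 0.047 (SE, adjusted p = 0.579) and -0.006 ± 0.030 (SE, adjusted p = 0.899). PDP2, a phosphatase that reactivates E1, was higher with PDHA1 by 0.093 ± 0.027 (SE, adjusted p = 0.00816) and with PDHB by 0.088 ± 0.028 (SE, adjusted p = 0.0178). PDP2 followed PDHA1 more than PDK4, the difference PDK4 minus PDHA1 being -0.24 ± 0.057 (SE, adjusted p = 0.012). The PDHA1 call was lost without pig 72 and the call of the difference without pig 20, and without the 2 most extreme pigs of the gene on the x axis the calls with PDHA1 and with PDHB were both lost. The kinase gene PDK3 was lower with DLD at -0.17 ± 0.042 (SE, adjusted p = 0.00632).

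Among 10 genes for the other fates and the import of pyruvate, 3 were higher and 2 lower with PDK4. The lower ones were PC, pyruvate carboxylase, at -0.13 ± 0.035 (SE, adjusted p = 0.00593), and ME1, the cytosolic malic enzyme, at -0.12 ± 0.025 (adjusted p = 0.000643). The higher ones were MPC2, a subunit of the mitochondrial pyruvate carrier, by 0.061 ± 0.019 (adjusted p = 0.0119), ME3 by 0.091 ± 0.028 (adjusted p = 0.0123) and LDHB, the heart-type lactate dehydrogenase, by 0.089 ± 0.033 (adjusted p = 0.0377). PDHA1 had the same 5 genes on the same sides plus MPC1 and ME2 higher, with MPC2 at 0.10 ± 0.015 (SE, adjusted p = 5.75e-07). With PDHB, 2 of the 10 were higher, among them MPC1 (0.041 ± 0.012 SE, adjusted p = 0.0106), and MPC2 had a slope of 0.011 ± 0.020 (adjusted p = 0.735). Neither call with PDHB was kept without pig 36 or without the 2 pigs farthest from the PDHB median. DLAT was followed by MPC1, MPC2 and LDHB, and DLD by these and by ME2 and ME3. LDHA, the muscle-type lactate dehydrogenase, passed in none of the 5 fits. The call of LDHB with PDK4 was lost when any 1 of 7 pigs was left out, and that of ME2 with PDHA1 when any 1 of 12 was. Without pig 72, 3 of these genes in place of 5 were higher with PDHA1, and 3 in place of 5 with DLD.

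Of 8 genes for the sister dehydrogenases and lipoate attachment, DLST, the E2 of the 2-oxoglutarate complex, followed all 5 genes. Its slope was 0.22 ± 0.018 (SE, adjusted p = 2.07e-14) with PDHA1, 0.17 ± 0.026 (SE, adjusted p = 4.71e-06) with DLAT, 0.12 ± 0.030 (SE, adjusted p = 0.00407) with DLD, 0.093 ± 0.032 (SE, adjusted p = 0.0284) with PDHB and 0.14 ± 0.028 (SE, adjusted p = 0.000224) with PDK4, the PDHB call being lost without pig 36. With PDHA1 and PDK4 entered together, DLST followed PDHA1 (0.21) and not PDK4 (0.022), the difference being -0.19 ± 0.040 (SE, adjusted p = 0.00559). The branched-chain genes divided. DBT, their E2, was higher with PDK4 (0.15 ± 0.034 SE, adjusted p = 0.0015) and PDHA1 (0.16 ± 0.034 SE, adjusted p = 0.00034). BCKDHA, BCKDHB and BCKDK, the E1 chains and their kinase, were higher with PDHB at 0.093 ± 0.018, 0.088 ± 0.026 and 0.075 ± 0.014 (SE, adjusted p = 0.000256, 0.0123 and 0.000194). In all, 6 of the 8 were higher with PDHB, 4 with PDHA1, 3 with DLAT, 3 with DLD and 2 with PDK4, and the 6 fell to 2 without pig 36. LIAS, which makes the lipoate carried by E2, was higher with DLD by 0.11 ± 0.026 (SE, adjusted p = 0.00252) and with DLAT by 0.096 ± 0.027 (SE, adjusted p = 0.0127).

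**Figure D4:**
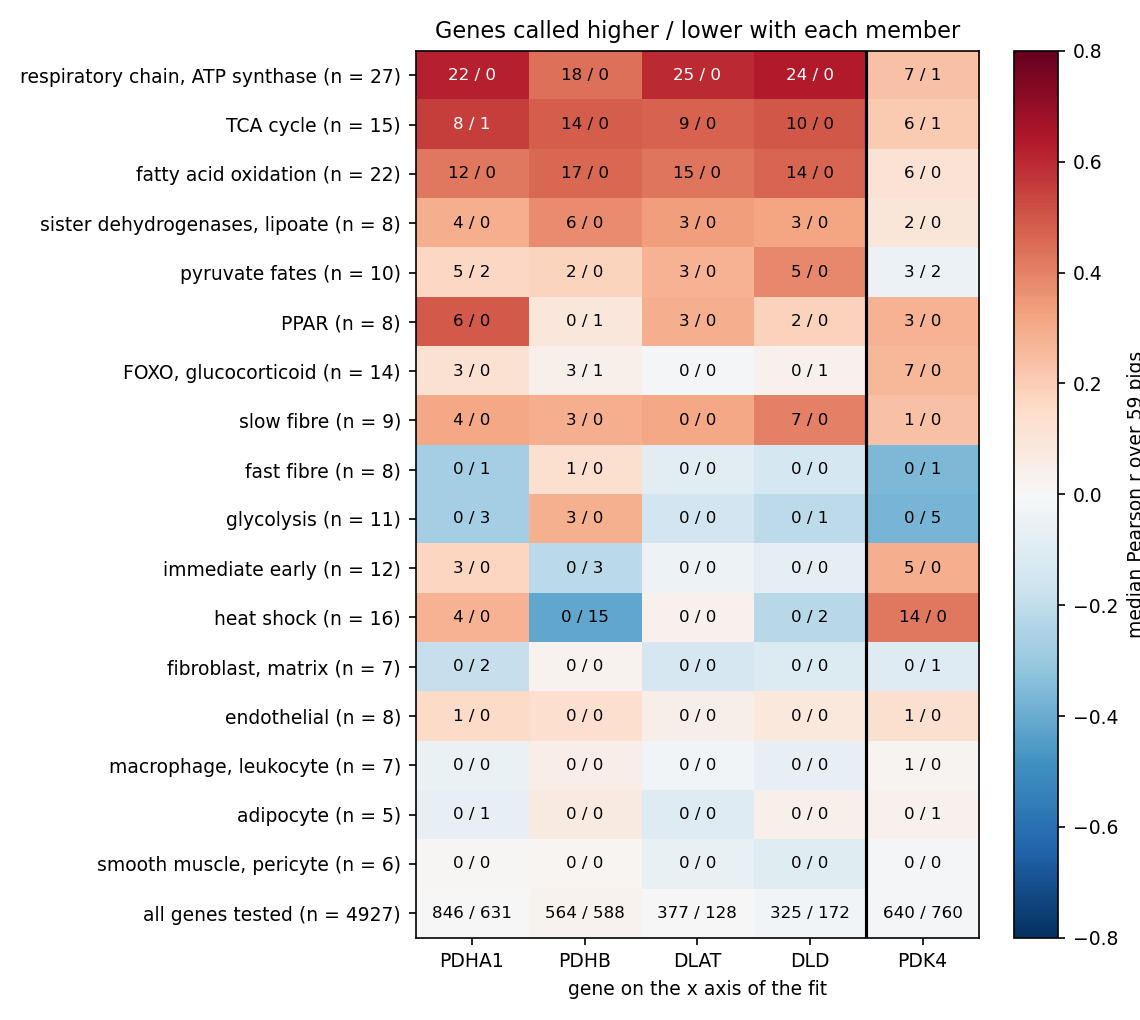
For each gene list (rows, with the number of genes tested) and each of the 5 genes (columns), the numbers of list genes higher / lower at an adjusted p under 0.05 in limma, over a colour for the list's median Pearson r over 59 pigs. The respiratory chain row is red under all subunits and pale under PDK4 (25 of 27 higher with DLAT, 7 with PDK4), and the heat shock row is red under PDK4 and blue under PDHB.

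Most respiratory chain genes rose with PDHA1, DLAT and DLD, fewer with PDHB, and some with PDK4. Of 27 respiratory chain and ATP synthase genes, 25 were higher with DLAT, 24 with DLD, 22 with PDHA1 and 18 with PDHB, none was lower, and the median r was 0.596, 0.635, 0.623 and 0.442, against -0.0058, -0.021, 0.0032 and 0.026 over all genes. With PDK4, 7 were higher and 1 lower, with a median r of 0.233 against -0.016. ATP5F1B, the catalytic beta subunit of ATP synthase, was higher with DLAT by 0.11 ± 0.010 (SE, adjusted p = 1.6e-11) and with DLD by 0.099 ± 0.012 (SE, adjusted p = 1.16e-08). NDUFA9 of complex I was higher with PDHA1 by 0.14 ± 0.014 (SE, adjusted p = 2.45e-12) and with PDK4 by 0.087 ± 0.020 (SE, adjusted p = 0.00117). Entered together with PDK4, 12 of the 27 followed PDHA1 more, beside 2.46% of all genes, 18 followed DLAT more, beside 9.07%, and 18 followed DLD more, beside 13.1%. No gene of the list followed PDK4 more than those 3 subunits. Entered with PDHB, 5 followed PDHB more, beside 20.4% of all genes, and 2 followed PDK4 more, beside 18.6%. Without pig 36, 1 gene was called each way. The PDHB count was 13 without pig 36 and 8 without the 2 pigs farthest from the PDHB median, and the count for PDK4 minus DLAT was 12 without pig 37.

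Of 15 TCA cycle genes, 14 were higher with PDHB, 10 with DLD, 9 with DLAT, 8 with PDHA1 and 6 with PDK4, and 1 was lower with PDHA1 and 1 with PDK4. CS, citrate synthase, which uses the acetyl-CoA the complex makes, was the gene most like PDHA1 on the array, at r = 0.892 and a slope of 0.16 ± 0.012 (SE, adjusted p = 7.15e-16). With PDHA1 and PDK4 entered together, CS had slopes of 0.18 and -0.021 and a difference of -0.20 ± 0.026 (SE, adjusted p = 3.38e-06). PDHB was followed by SUCLA2, the ADP-forming succinyl-CoA ligase chain, at 0.11 ± 0.014 (SE, adjusted p = 1.74e-06). DLD was followed by IDH3B, a chain of isocitrate dehydrogenase, at 0.10 ± 0.014 (SE, adjusted p = 1.89e-07). The PDK4 count was 2 without pig 72 and the PDHB count 9 without pig 36. Given the respiratory chain score, no TCA gene passed with DLAT or DLD, while 9 were higher with PDHB, 6 with PDHA1 and 2 with PDK4. Over the whole array, that setting gave far fewer calls with DLAT and DLD than with PDHB, so these counts are not set against each other. The shares over all genes given above are from fits without the score. PDHB had more calls over the whole array with the score than without it. These counts are therefore not read as a result about the list.

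Fatty acid oxidation, the route that competes with pyruvate for acetyl-CoA supply, also went with the subunits. Of 22 genes, 17 were higher with PDHB, 15 with DLAT, 14 with DLD, 12 with PDHA1 and 6 with PDK4, and none was lower, and the 17 became 12 without pig 36. Those that followed PDK4 included FABP3, the muscle fatty acid binding protein, at 0.19 ± 0.036 (SE, adjusted p = 0.00018), ACADVL, the very long chain acyl-CoA dehydrogenase, at 0.16 ± 0.038 (SE, adjusted p = 0.0019), and CPT1B, the gate of mitochondrial fatty acid import, at 0.12 ± 0.033 (SE, adjusted p = 0.00419). FABP3 and ACADVL had larger slopes on PDHA1, 0.26 ± 0.028 and 0.25 ± 0.029. ETFA, an electron transfer flavoprotein chain, was the gene most like DLD, at r = 0.859 and 0.13 ± 0.012 (SE, adjusted p = 1.33e-12), and followed DLD more than PDK4, the difference PDK4 minus DLD being -0.14 ± 0.018 (SE, adjusted p = 1.73e-07). PDHB was followed by HADH (0.11 ± 0.017 SE, adjusted p = 2.52e-05) and ACADM (0.11 ± 0.019 SE, adjusted p = 5.83e-05), enzymes of shorter acyl chains. Given the respiratory chain score, 9 were higher with PDHB, 3 with DLD and none with DLAT, and with PDHA1 4 were higher and 3 lower. Here too the whole array had far fewer calls with DLAT and DLD than with PDHB, and the counts given the score are not read as a result about the list.

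Of 8 genes that PPAR receptors or their coactivators act with or on, 6 were higher with PDHA1, 3 with PDK4, 3 with DLAT and 2 with DLD, and 1 was lower with PDHB. PLIN2, a coat protein of lipid droplets, was higher with PDK4 by 0.48 ± 0.092 (SE, adjusted p = 0.000153) and with PDHA1 by 0.46 ± 0.094 (SE, adjusted p = 0.0002), and lower with PDHB at -0.30 ± 0.10 (SE, adjusted p = 0.0323). The PDHB call was lost without pig 36 (adjusted p = 0.275), with the 2 most extreme PDHB pigs left out (adjusted p = 0.647) and with no filter (adjusted p = 0.0518). LPL, the lipase that frees fatty acids from lipoproteins, was higher with PDK4 by 0.28 ± 0.059 (SE, adjusted p = 0.00043) and LPIN1, a phosphatidate phosphatase, by 0.11 ± 0.041 (SE, adjusted p = 0.0328). The LPIN1 call was lost when any 1 of 5 pigs was left out. PPARGC1A, a coactivator of mitochondrial genes, had a slope of 0.25 ± 0.11 on PDK4 (adjusted p = 0.08). TFAM, the mitochondrial transcription factor, was higher with PDHA1 (0.078 ± 0.016 SE, adjusted p = 0.000229), DLAT (0.087 ± 0.015 SE, adjusted p = 4.38e-05) and DLD (0.066 ± 0.017 SE, adjusted p = 0.00695). The PDK4 count lay between 2 and 5 when single pigs were left out, with the 2 when pig 37 was out.

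Known FOXO and glucocorticoid targets rose in part with PDK4. Of 14 tested, 7 were higher with PDK4 and none lower, against 3 higher with PDHA1, 3 higher and 1 lower with PDHB, none with DLAT and 1 lower with DLD. The 4 calls with PDHB were lost without pig 36, and also without the 2 pigs farthest from the PDHB median. CEBPD, a glucocorticoid-responsive transcription factor, was the gene most positively correlated with PDK4, at r = 0.673 and 0.41 ± 0.059 (SE, adjusted p = 3.66e-06). GABARAPL1, an autophagy gene under FOXO control, had a slope of 0.25 ± 0.043 (SE, adjusted p = 3.69e-05), FOXO1 itself 0.21 ± 0.046 (SE, adjusted p = 0.000689), and FKBP5, induced by glucocorticoids, 0.16 ± 0.048 (SE, adjusted p = 0.0115). CEBPD followed PDK4 more than each of the 4 subunits. The differences, PDK4 minus the subunit, were 0.63 ± 0.13 (SE, adjusted p = 0.00237) for PDHA1, 0.62 ± 0.072 (SE, adjusted p = 2.66e-09) for PDHB, 0.71 ± 0.089 (SE, adjusted p = 2.58e-07) for DLAT and 0.66 ± 0.082 (SE, adjusted p = 1.64e-07) for DLD. GABARAPL1 and FOXO1 also followed PDHA1, at 0.27 ± 0.042 (SE, adjusted p = 2.98e-06) and 0.16 ± 0.049 (SE, adjusted p = 0.0103), and their slopes on PDK4 and PDHA1 were not called different. Entered together, 1 of the 14, CEBPD, followed PDK4 more than PDHA1, 4 followed it more than PDHB and 2 less, 3 more than DLAT and 5 more than DLD, beside 0.142%, 18.6%, 4.10% and 11.0% of all genes higher. The 2 that followed PDHB more became 0 without pig 36.

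With the first principal component as a covariate, 24 of 4927 genes were called with PDK4, 10 higher and 14 lower. Among listed genes, CEBPD and LPL were called both with and without the covariate, at 0.31 (adjusted p = 0.0351) and 0.34 (adjusted p = 0.0192) with it. Outside the lists, so were ABHD4 at 0.17 (adjusted p = 0.0333) and ACVR1B at -0.14 (adjusted p = 0.0499), both named below among the genes of highest and lowest r. From the FOXO and glucocorticoid list, 4 further genes were called with the covariate alone, each at an adjusted p just under 0.05. They are SESN1, a stress-induced sestrin, GLUL, glutamine synthetase, TXNIP, which restrains glucose uptake, and KLF15, a glucocorticoid-induced transcription factor. Without it their slopes were -0.0555, 0.0582, -0.0195 and 0.0397, so SESN1 and TXNIP changed sign. These genes were named after their values were seen. Heat shock, TCA cycle, respiratory chain and fatty acid oxidation genes numbered 0 in that fit. With 24 called of 4927, these zeros lie near the share over all genes and are not read as a result about the lists. With the 3' to 5' difference as a covariate, 4 of the 14 were called in place of 7.

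Several glycolytic genes were lower with PDK4. Of 11 tested, 5 were lower with PDK4, with a median r of -0.371 against -0.016 over all genes, 3 were lower with PDHA1, 1 lower with DLD and none called with DLAT, and 3 were higher with PDHB. The 3 with PDHA1 became 0 without pig 52, and without the 2 most extreme pigs of the gene on the x axis neither the 3 with PDHA1 nor the 3 with PDHB were called. PYGM, muscle glycogen phosphorylase, had a slope of -0.035 ± 0.010 (SE, adjusted p = 0.00816) on PDK4, and PGK1 one of -0.042 ± 0.012 (SE, adjusted p = 0.00878). PFKM, the muscle phosphofructokinase, was lower with PDK4 at -0.061 ± 0.019 (SE, adjusted p = 0.0147) and higher with PDHB by 0.079 ± 0.018 (SE, adjusted p = 0.00124). Entered together, 8 of the 11 followed PDHB more than PDK4, beside 20.4% of all genes, with PFKM at -0.13 ± 0.023 (SE, adjusted p = 4.85e-06). Without pigs 36 and 52, the 8 became 5. With the first principal component as a covariate, few genes were called with PDK4 at all, and none of the 11 was.

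Fibre type genes gave few calls with PDK4, beside 13.0% of all genes higher and 15.4% lower. Their median r with PDK4 was -0.362 over the 8 fast fibre genes and 0.236 over the 9 slow fibre genes, against -0.016 over all genes. TNNI1, the slow troponin I, was the slow fibre gene higher with PDK4 (0.090 ± 0.033 SE, adjusted p = 0.0353), 1 of 9, and ATP2A1, the fast fibre calcium pump, the fast fibre gene lower with it (-0.10 ± 0.029 SE, adjusted p = 0.00818), 1 of 8. The TNNI1 call was lost when any 1 of 4 pigs was left out. With ranks in place of values, 6 of the 8 fast fibre genes were lower with PDK4, beside 18.6% of all genes, and 0 of the 9 slow fibre genes were called. The dimmer PDK4 probe set and quantile normalisation each put 3 of the 8 fast fibre genes lower, beside 14.9% and 14.8% of all genes. Slow fibre genes followed DLD, with 7 of 9 higher, among them ATP2A2, the slow calcium pump (0.11 ± 0.025 SE, adjusted p = 0.000942), and TNNC1 (0.11 ± 0.026 SE, adjusted p = 0.00273). That count was 3 without pig 72. With PDHA1, 4 were higher, and 1 without pig 72.

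Heat shock genes stood in opposite directions to PDK4 and PDHB. Of 16 tested, 14 were higher with PDK4, with a median r of 0.424, and 15 were lower with PDHB, with a median r of -0.416. HSPB1, a small heat shock protein, had a slope of 0.29 ± 0.058 (SE, adjusted p = 0.000228) on PDK4 and -0.28 ± 0.059 (SE, adjusted p = 0.000476) on PDHB, and the difference was 0.56 ± 0.064 (SE, adjusted p = 2.66e-09). CRYAB was higher with PDK4 by 0.13 ± 0.026 (SE, adjusted p = 0.00017) and HSPA8, the constitutive HSP70, lower with PDHB at -0.097 ± 0.020 (SE, adjusted p = 0.000431). All 16 followed PDK4 more than PDHB, beside 18.6% of all genes. The list was not called with DLAT for any gene, was lower with DLD for 2, and was higher with PDHA1 for 4, a count that lay between 2 and 10 as single pigs were left out. The 15 lower with PDHB became 5 without pig 36 and 1 without the 2 pigs farthest from the PDHB median, while the count for PDK4 lay between 13 and 16 as single pigs were left out. With the first principal component as a covariate, none of the 16 was called with PDK4, PDHA1 or PDHB. Few genes of any kind were then called with PDK4, while PDHA1 and PDHB kept more calls. The component itself correlated with the mean of the heat shock genes at 0.850, so these zeros are not read as a result about the list.

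Immediate early genes, which respond within minutes to stress, had a like pattern with fewer calls. Of 12, 5 were higher with PDK4 and 3 lower with PDHB. MYC was higher with PDK4 by 0.45 ± 0.087 (SE, adjusted p = 0.000158) and lower with PDHB at -0.36 ± 0.094 (SE, adjusted p = 0.00476), with a difference of 0.78 ± 0.10 (SE, adjusted p = 5.61e-08). ATF3 was higher with PDK4 by 0.57 ± 0.12 (SE, adjusted p = 0.000536) and lower with PDHB at -0.47 ± 0.13 (SE, adjusted p = 0.00634). The PDHB count was 0 without pig 36. Entered together, 10 of the 12 followed PDK4 more than PDHB, beside 18.6% of all genes. Without pig 36 the count was 6, beside 14.7% of all genes.

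**Figure D5:**
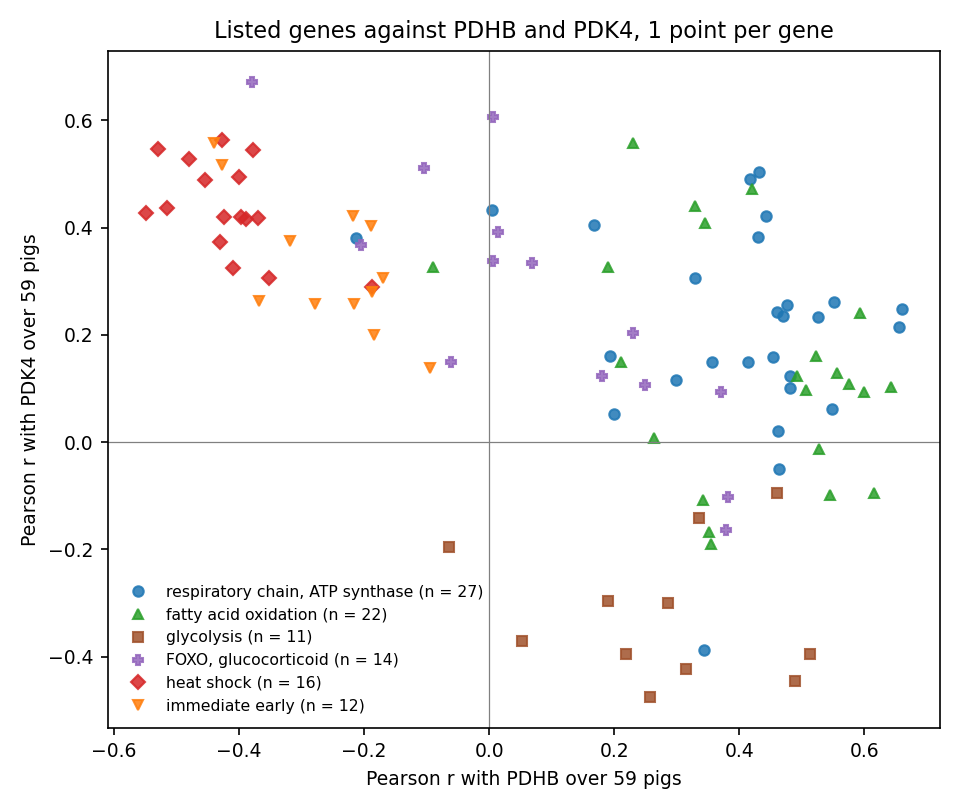
Pearson r of each listed gene with PDHB (x axis) and with PDK4 (y axis) over 59 pigs, 1 point per gene, coloured by list. Heat shock and immediate early genes lie upper left, glycolytic genes mostly lower right, and respiratory chain genes mostly right of 0 on the x axis.

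Some markers of other cell types were called with PDK4 and PDHA1, and none was called with PDHB, DLAT or DLD. Over all genes, 28.4% were called in either direction with PDK4 and 30.0% with PDHA1. The shares were 23.4% with PDHB, 10.2% with DLAT and 10.1% with DLD. With PDK4, 1 of 5 adipocyte, 1 of 7 fibroblast and matrix, 1 of 7 macrophage, 1 of 8 endothelial, 0 of 6 smooth muscle, 0 of 1 red blood cell and 0 of 2 nerve markers were called. CIDEA, a lipid droplet gene (-0.15 ± 0.059 SE, adjusted p = 0.0478), and LUM, the matrix proteoglycan lumican (-0.19 ± 0.056 SE, adjusted p = 0.00837), were lower, and CD163 (0.17 ± 0.067 SE, adjusted p = 0.047) and PECAM1 (0.087 ± 0.034 SE, adjusted p = 0.0489) higher. The calls of CIDEA, CD163 and PECAM1 were lost when any 1 of 34, 26 and 35 pigs was left out. With PDHA1, 2 of 7 fibroblast and matrix markers were lower, LUM at -0.25 ± 0.052 (SE, adjusted p = 0.000213) and DCN, decorin, at -0.093 ± 0.030 (SE, adjusted p = 0.016). CIDEA (-0.16 ± 0.059 SE, adjusted p = 0.0427) and HBB, the globin that stands for red blood cells (-0.066 ± 0.025 SE, adjusted p = 0.041), were lower too. PECAM1 (0.11 ± 0.033 SE, adjusted p = 0.00689) and the nerve marker MBP (0.17 ± 0.066 SE, adjusted p = 0.0496) were higher with PDHA1, and no macrophage or smooth muscle marker was called with it. MBP and CIDEA do not stand for their lists. The slopes of the 2 nerve markers on PDHA1 were 0.17 and -0.054. Those of the 5 adipocyte markers ran from -0.16 to 0.16 on PDHA1, and from -0.15 to 0.058 on PDK4 with a median of 0.0056. The PDHA1 calls of CIDEA, HBB and MBP were lost when any 1 of 19, 12 and 38 pigs was left out, and those of DCN and PECAM1 without the 2 most extreme PDHA1 pigs. The adipocyte marker ADIPOQ ran from 4.50 to 7.05 log2 and did not pass the filter, while FABP4 ran from 9.92 to 11.77. The part of other cell types in the results was not tested.

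The genes most like each member were taken by Pearson r over the 59 pigs, which describes these arrays only. After CEBPD, PDK4 was most like DDX27 (r = 0.657), TBC1D1, a Rab GTPase-activating protein of glucose transport in muscle (r = 0.614), GABARAPL1 (r = 0.606), FOSL2 (r = 0.605), RETREG1, a receptor for autophagy of the endoplasmic reticulum (r = 0.597), ABHD4 (r = 0.593) and RBM19 (r = 0.587). The lowest r belonged to ACVR1B, an activin and myostatin receptor (r = -0.701), FGF13 (r = -0.686), PRDX5, a peroxiredoxin (r = -0.668), RIC8B (r = -0.666), CXXC5 (r = -0.662), RHOBTB1 (r = -0.649), ELOB (r = -0.636) and KDM2A (r = -0.629). RETREG1 had a slope of 0.48 ± 0.083 (SE, adjusted p = 4.48e-05) and ACVR1B one of -0.25 ± 0.033 (SE, adjusted p = 1.87e-06).

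Most of the genes most like the subunits encode mitochondrial proteins, with no test made of this. PDHA1 was most like CS, DLST (r = 0.855), MDH1, cytosolic malate dehydrogenase (r = 0.849), and IMMT, a protein of the inner membrane's cristae (r = 0.844), and least like CAND2 (r = -0.737), ZFAND2B (r = -0.719) and RPL38 (r = -0.714). PDHB was most like VDAC1, the outer membrane channel (r = 0.748), SLC25A12, the aspartate/glutamate carrier (r = 0.729), SUCLA2 (r = 0.716) and PPTC7, a mitochondrial phosphatase (r = 0.675), and least like FSTL3 (r = -0.717), ITGB1 (r = -0.669) and TRAM1 (r = -0.654). None of these 4 was among the 4 most like PDHA1, its partner in E1. With lists this short out of 4927 genes, that is not read as a contrast.

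DLAT was most like 3 ATP synthase genes, ATP5F1B (r = 0.858), ATP5F1A (r = 0.836) and ATP5MC3 (r = 0.808), and SLC25A4, the muscle ADP/ATP carrier (r = 0.823). It was least like ZFAND2B (r = -0.575) and the ribosomal genes RPSA (r = -0.573) and RPS12 (r = -0.567). DLD was most like ETFA, DLAT (r = 0.789), ATP5F1B (r = 0.781) and LOC100522678 (r = 0.778), and least like RACK1 (r = -0.643), RAC1 (r = -0.614) and CD151 (r = -0.599). No gene in these lists of most alike genes was shared between PDK4 and a subunit. The lists are short beside the 4927 genes tested, so this too is not read as a contrast.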

How the data were processed

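RNA of longissimus dorsi was labelled with biotin and hybridised to Affymetrix porcine arrays, per the labels' protocols, 1 array for each of 59 pigs. The deposited log2 values are GCRMA values of 24123 probe sets, per the submitters' processing notes; no version was named, and log2 was taken from the range of 2.39 to 15.04, since no source states the base. GCRMA compresses dim and very bright signals. The total signal per array carries no count of molecules.

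Probe sets were named from the platform annotation, with 1 symbol for 10099, several for 198 and none for 13826. Symbols were updated for 9989 through Entrez identifiers, and 10 older symbols were matched by hand. Controls (124) were left out, and the 12000 probe sets with a mean of at least 6.27, the median of all means, were tested.

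Slopes per SD of each gene over pigs, and differences of slopes with PDK4 and a subunit entered together, were fitted with limma 3.58.1 in R 4.3.3 (lmFit, eBayes) and adjusted by Benjamini-Hochberg over all probe sets tested, with calls at 0.05. The brightest probe set stood for a gene. Correlations had two-sided permutation tests of 100000 resamples, and intervals of SDs came from 1000 resamples of arrays. Genes named were the members, the genes of highest and lowest r (8 each for PDK4, 4 and 3 for each subunit), all measured regulators, pyruvate and sister dehydrogenase genes, and from other lists those of smallest p (up to 4 for PDK4 and 3 otherwise). The 5 members and the 21 lists (308 genes, 206 tested) were chosen with earlier results of these data known. The pigs were separate animals, and no array batch was given. The fits were tested on simulated data. Alternatives were another filter, probe set, normalisation and rank scale, 3 covariates, and omission of pigs.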

Additional observations from a re-analysis of the deposited data

How the results depend on the processing

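No paired analysis was possible because all arrays form 1 group and the pig numbers only name them. Pig 36 carried the most weight: as single pigs were left out, probe sets called with PDHB numbered 1002 (without pig 36) to 2637, those with DLAT 740 to 1422 (without pig 36), those for PDK4 minus PDHA1 120 (without pig 36) to 254, and 137 without pig 72, and those for PDK4 minus DLAT 768 (without pig 37) to 1629, and 895 without pig 36. Without pigs 36 and 52 together, an alternative chosen after seeing the data, the counts were 931 for PDHB, 116 for PDK4 minus PDHA1 and 933 for PDK4 minus DLAT. The main counts were 2442 for PDHB, 928 for DLAT, 206 for PDK4 minus PDHA1 and 1462 for PDK4 minus DLAT. Without the 2 pigs farthest from its median, PDHB had 426.

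With the first principal component as a covariate, 60 probe sets were called with PDK4 in place of 3158, 1416 with PDHA1 in place of 3314, 1095 with PDHB and 1474 with DLD in place of 973, and the differences had 226 for PDHB in place of 4349, 628 for DLAT and 723 for DLD in place of 2766. The share of higher calls moved from 48.2% to 65.4% for PDHB, from 42.6% to 31.7% for PDK4, and for the differences from 46.0% to 11.5% for PDHB, from 29.7% to 14.3% for DLAT and from 44.6% to 24.3% for DLD. Quantile normalisation moved the share for PDK4 minus DLAT from 29.7% to 41.7%. With the respiratory chain score as a covariate, the counts were 4114 for PDHB, 107 for DLAT, 647 for DLD and 872 for PDK4 minus DLAT, and the DLD share went from 65.5% to 51.3%. Ranks gave 1599 for PDHB and 129 for PDK4 minus PDHA1, and the dimmer PDK4 probe set 396 for the latter. The cause of these moves was not tested.

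PDHA1 had a slope of 0.139 on PDK4 given the component (adjusted p = 0.101). DLAT on PDK4 was not called in several settings. Its slopes there were 0.0620 with no filter, 0.0514 with the mean of both PDK4 probe sets, 0.0449 with the dimmer one and 0.0667 given the component. They were 0.0205 given the score, 0.0600 without the 2 extreme pigs and 0.0588 without pigs 36 and 52. As single pigs were left out, the slope ranged from 0.0512 to 0.0695. The slope of PDHB on PDHA1 was 0.0456 with no filter and 0.0377 to 0.0506 as single pigs were left out. Given the score, the slope of PDHB on PDHA1 turned to -0.00554 and that of DLD on PDHA1 to -0.0145. DLAT on PDHB (slope 0.0300), DLD on PDHB (slope 0.0239) and DLD on DLAT (slope 0.0703) were then not called, the score holding genes that follow the subunits. The slope of DLD on PDHB was 0.0638 without the 2 extreme pigs. The SD of PDK4 was 0.383 with the mean of both probe sets and 0.505 with the dimmer one.

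Of 167 named slopes, 63 lost their call given the component and 44 given the score, and 4 with quantile normalisation. Among them, PFKM on PDK4 turned to 0.000167 and PLIN2 on PDHB to 0.0537 given the component, and the difference of the slopes of PDHA1 on PDK4 and PDHB to -0.187; SESN1 and TXNIP on PDK4, negative and not called, turned to 0.144 and 0.0877. Given the score, slopes turned for MPC1 (-0.0196) and ME2 (-0.0281) on PDHA1, MPC2 on PDHB (-0.0629), MPC2 (-0.00164), LDHB (-0.0364) and LIAS (-0.0285) on DLAT, and MPC1 (-0.00281), MPC2 (-0.0325), ME2 (-0.0134), DLST (-0.0507) and TNNC1 (-0.000858) on DLD. Given the score, no pyruvate, sister dehydrogenase or slow fibre gene was called with DLAT or DLD, which had far fewer calls over the whole array than PDHB.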
